A study of Mus musculus with 6 samples.

Results

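Forkhead box O (FoxO) factors and antioxidant genes were compared in RNA from sorted mouse haematopoietic stem cells with and without induction of the ETV6-RUNX1 fusion. This fusion joins the genes of 2 blood transcription factors and is found in childhood B-cell precursor leukaemia. The 10 genes were chosen by symbol: Foxo1, Foxo3, Foxo4, Sod1, Sod2, Cat, Gpx1, Txnip, Nfe2l2 and Hmox1. Each had a single row in the deposited table, among 55471 gene IDs in all. Both groups carried the ETV6-RUNX1 genotype. The uninduced group (3 libraries) had no doxycycline treatment in its labels, and the induced group (3 libraries) came from mice given doxycycline in their food for 2 weeks. Cells of both groups were sorted as Lin- Kit+ Sca1+ CD48- CD150+. Strain, age, the driver of the fusion and whether cells of several mice were pooled are not given in the sources used here. A doxycycline-fed group without the fusion was not analysed here, so induction of the fusion and doxycycline cannot be told apart.

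FoxO proteins are transcription factors that the PI3K and Akt pathway holds in the cytoplasm. When that signalling is low they enter the nucleus and activate genes of cell cycle arrest, stress resistance and autophagy. In mice, loss of FoxO factors raises reactive oxygen species in haematopoietic stem cells and depletes the long-term repopulating pool. Superoxide dismutases turn superoxide into hydrogen peroxide, which catalase, glutathione peroxidases and peroxiredoxins remove, and thioredoxin keeps peroxiredoxins and other proteins reduced. Nrf2, encoded by Nfe2l2, is held back by Keap1 and activates a separate set of antioxidant genes, among them Hmox1.

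The measure was TPM, the abundance of a gene's transcripts as a length-corrected share of each library. Sequencing depth is not known from it, so no counting interval or detection limit can be given. Of 13470 genes averaging 1 TPM or more, limma called 11.5% changed at an adjusted p under 0.05, 1.29% higher and 10.2% lower in induced libraries. The median log2 change of all tested genes was -0.35, so values in induced libraries lay below those in uninduced libraries for most genes. Nuclear protein-coding genes held 26.6% to 32.9% of TPM in uninduced and 20.5% to 23.2% in induced libraries, without overlap. The part of this difference in composition in the deposited-scale changes was not tested. Rescaling to nuclear protein-coding genes is among the alternatives tried. Scaling each library by the median of its ratios to the average library brought this median to -0.0029. On that scale 6.04% of genes were called, 2.84% higher and 3.21% lower. Changes are of log2(TPM + 1) on the deposited scale unless said to be after this scaling. In bulk RNA, fewer cells that express a gene and less of its RNA per cell cannot be told apart. Of 17 genes listed for stem cells, Cd48 and Flt3 among them, 16 reached the minimum of 1 TPM. Cd48, a gene the sort selected against, did not. Of the 16, 4 were called higher and 3 lower, and 6 higher and 1 lower after scaling.

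All 10 genes reached the expression minimum, and 1 of the 10, Txnip, was called changed on the deposited scale, against 11.5% of all genes called in either direction and 1.29% called higher. That count is near the share of all genes called in either direction. It is above the share called higher, a comparison that rests on 1 gene. Groups did not overlap for 3 of the 10, against 33.1% of all tested genes. Txnip and Gpx1 were the 2 higher in induced libraries, against 4.83% of all genes, and Sod2 the 1 lower, against 28.2%. After scaling, 2 of the 10, Txnip and Gpx1, were called, both higher, against 6.04% of all genes called and 2.84% called higher. Groups then did not overlap for 9 of the 10, against 27.9% of all tested genes. Of these 8 were higher and 1, Sod2, lower, against 13.4% and 14.5% of all genes. The scaled Sod2 groups were barely apart, with the lowest uninduced library at 11.17 and the highest induced library at 11.16. The median log2 change of the 10 genes was 0.24 on the deposited scale and 0.63 after scaling, beside -0.35 and -0.0029 for all tested genes. With a library left out, the median of the 10 was 0.10 to 0.33 on the deposited scale and 0.50 to 0.72 after scaling.

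The genes spanned a wide range of levels. Over the 6 libraries Txnip averaged 456 TPM, Gpx1 347 TPM and Sod1 224 TPM, and ranked 158, 198 and 281 among the 13470 tested genes. In uninduced libraries the levels of Txnip and Gpx1 did not differ beyond their spread, at 282 ± 67.5 and 306 ± 36.6 TPM (SD, n = 3 each). Cat and Foxo3 followed at a mean of 45.1 and 40.03 TPM, and their ranges overlapped. Nfe2l2 averaged 30.3 TPM, Foxo4 15.3 TPM and Sod2 11.1 TPM. Hmox1 averaged 4.60 TPM and Foxo1 3.17 TPM, with overlapping ranges.

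**Figure D1:**
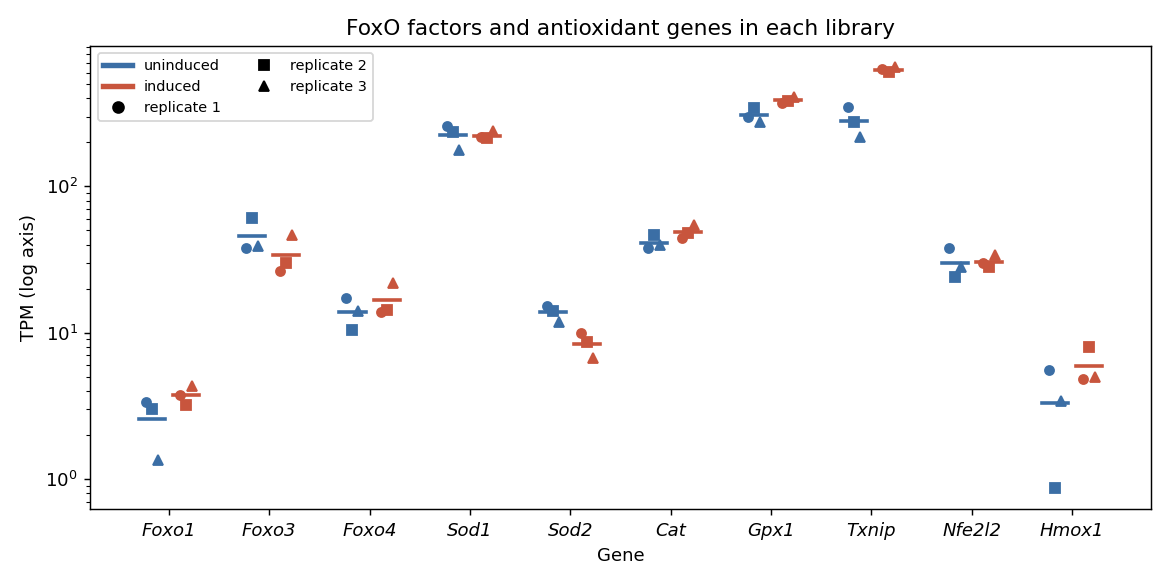
TPM of each gene in each library, on a log axis, with points for the 3 uninduced (blue) and 3 induced (red) libraries and bars for group means. The induced libraries lie between 604 and 656 TPM for Txnip, above the 217 to 352 TPM of the uninduced libraries, while the groups overlap for Foxo1, Foxo3, Foxo4, Sod1, Cat, Nfe2l2 and Hmox1.

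Txnip (ENSMUSG00000038393; GRCm38, chromosome 3, 96557957 to 96561883, plus strand) encodes thioredoxin-interacting protein, an arrestin family member that binds and inhibits thioredoxin and lowers glucose uptake. It was at 352, 276 and 217 TPM when uninduced and at 631, 604 and 656 TPM when induced. Every induced library was above every uninduced library. Its mean rose 2.24-fold to 630.1 ± 25.8 TPM (SD, n = 3), or by 1.19 on the log2 scale (SE 0.18, adjusted p 0.00433 by limma). After scaling the change was 1.59 (SE 0.14, limma adjusted p 0.000676). The call was kept when any single library was left out, with changes of 1.01 to 1.36 and limma adjusted p of 0.00818 to 0.0274.

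The upstream region of Txnip is shown because Txnip was the 1 of the 10 genes called on both scales, and because 2 motif matches lie within it. It covers the 250 bases before the RefSeq start site (GRCm38.p6, chr3:96557707-96557956, plus strand), and capitals mark the matches.

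Txnip: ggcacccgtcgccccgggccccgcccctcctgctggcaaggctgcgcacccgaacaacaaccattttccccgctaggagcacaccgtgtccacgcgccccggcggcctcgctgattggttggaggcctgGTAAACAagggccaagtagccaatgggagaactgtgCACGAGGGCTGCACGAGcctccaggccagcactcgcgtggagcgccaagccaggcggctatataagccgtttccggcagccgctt

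The first match, 121 to 115 bases before the start, is the FoxO binding element GTAAACA. The second, 85 to 69 bases before the start, holds 2 copies of CACGNG separated by 5 bases, the layout of a carbohydrate response element, to which the glucose-sensing factors MondoA and ChREBP bind with their partner Mlx. The 2 matches do not overlap each other. Promoter windows of 250 bases before to 50 after the start were available for 8 of the 10 genes and searched on both strands for GTAAACA, TGANNNNGC (the core of the antioxidant response element bound by Nrf2), CACGTG, and pairs of CACGTG (strict) or CACGNG (loose) separated by 5 bases. CACGTG lies within the strict pair. The loose pair was added after no window was found to hold the strict form. GTAAACA was in 3.65% of 32851 windows and, among the 8 genes, in that of Txnip alone. The loose pair was in 16 windows, or 0.0487%, and the strict form in 0. Of the 10 tested genes with the loose pair, Txnip was called higher and 3 were called lower, against 1.29% and 10.2% of all genes. After scaling Txnip alone was called. CACGTG was in 7.15% of all windows and in none of the 8. A match describes letters only, and binding was not measured.

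The core TGANNNNGC was in 41.3% of all windows and in those of Sod1 and Nfe2l2 among the 8. Both matches are shown with 10 bases on each side to set them beside the Txnip region. Neither gene was called changed on the deposited scale or after median-of-ratios scaling. The Sod1 stretch is chr16:90220696-90220724 on the plus strand, with the core on the minus strand, and the Nfe2l2 stretch is chr2:75704885-75704913 on the minus strand (GRCm38.p6).
Sod1: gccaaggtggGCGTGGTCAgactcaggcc
Nfe2l2: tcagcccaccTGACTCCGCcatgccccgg

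The antisense gene Gm15441 (ENSMUSG00000074398; GRCm38, chromosome 3, 96555765 to 96566801, minus strand) spans the whole of Txnip on the opposite strand, and its exons hold all 250 bases of the Txnip region shown. It was named after its values were seen. Gm15441 was at 0.0906, 0 and 0.249 TPM when uninduced and at 5.70, 5.06 and 4.64 TPM when induced. It rose by 2.46 on the log2 scale (SE 0.40, limma adjusted p 0.00549), and by 2.62 after scaling (limma adjusted p 0.00547). With 1 uninduced library at 0, the size depends on the pseudocount: it was 0.99 with a pseudocount of 5 and 4.79 with 0.1, and Gm15441 was called with both. The pair shares 606 exonic bases, of 1676 in Gm15441 and 3123 in Txnip. Whether the counting used strand is not given in the sources used here, so reads from shared bases cannot be assigned to either gene. On the length-corrected TPM scale, Gm15441 in induced libraries was at 5.13 ± 0.538 TPM (SD, n = 3), and Txnip at 630.1 ± 25.8 TPM.

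Txn1, which encodes cytosolic thioredoxin, the protein that Txnip binds, was lower in the induced group. It was at 67.9, 54.2 and 41.5 TPM in uninduced and 25.8, 22.3 and 31.7 TPM in induced libraries, without overlap. Txn1 fell by 0.99 on the log2 scale (adjusted p 0.0261 by limma). After scaling its difference was -0.60 and was not called (adjusted p 0.108). On the deposited scale the call was also lost without uninduced replicate 1 (adjusted p 0.0920) or 2 (0.0824) and without induced replicate 1 (0.0838) or 2 (0.105). The ratio of Txnip to Txn1 within a library does not depend on how that library is scaled. It was 5.18, 5.10 and 5.24 in the uninduced libraries and 24.4, 27.1 and 20.7 in the induced libraries. The induced ratios were 4.62-fold higher by geometric mean, a log2 difference of 2.21, and the exact permutation test (two-sided) gave a p of 0.1, the lowest it can reach with 3 libraries per group. The uninduced ratios were nearly alike, with an SD of 0.0196 on the log2 scale, although Txnip and Txn1 each varied by more between those libraries.

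By a fixed rule, the 3 protein-coding genes whose profiles over the 6 libraries lay closest to that of Txnip were taken from 7770 candidates at a mean of at least 5 TPM. They were Phf1, which encodes a Polycomb-associated protein, Procr, which encodes the endothelial protein C receptor that marks stem cells, and Mllt3, which encodes a chromatin reader that maintains stem cells. The root mean square differences of their centred log2 values from Txnip were 0.0999, 0.118 and 0.126. Procr was at 50.2, 45.9 and 39.02 TPM in uninduced and 95.0, 93.6 and 113 TPM in induced libraries. Mllt3 was at 47.5, 49.3 and 36.9 TPM and at 103, 94.4 and 104 TPM. Phf1 was at 11.6, 11.2 and 8.21 TPM and at 24.9, 21.9 and 25.4 TPM. Phf1 lost its call without any 1 of the induced libraries (adjusted p 0.0547 to 0.0628), while Procr and Mllt3 kept theirs. Likeness to Txnip, a called gene, was the rule of choice, so a difference between groups in these 3 genes was built in. These profiles describe 6 libraries in 2 groups, and all genes of a library share its depth and composition.

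Among the enzymes that remove peroxide, Gpx1 (ENSMUSG00000063856; GRCm38, chromosome 9, 108338903 to 108340343, plus strand) encodes the main cytosolic glutathione peroxidase. Gpx1 was at 297, 346 and 274 TPM when uninduced and at 373, 385 and 410.1 TPM when induced. The groups did not overlap, with a gap of 346 to 373 TPM between them. On the deposited scale the 1.27-fold difference did not pass (log2 change 0.35, SE 0.14, limma adjusted p 0.133). After scaling Gpx1 rose by 0.75 on the log2 scale (SE 0.10, limma adjusted p 0.00459), and this call was kept when any single library was left out, with limma adjusted p of 0.0148 to 0.0322.

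Cat (ENSMUSG00000027187; GRCm38, chromosome 2, 103453849 to 103485160, minus strand) encodes catalase, the peroxisomal enzyme that breaks down hydrogen peroxide. Its values were 37.8, 46.4 and 39.6 TPM in the uninduced libraries and 44.5, 47.7 and 54.8 TPM in the induced libraries. The groups overlapped, because uninduced replicate 2 was above induced replicate 1. The log2 change was 0.24 (SE 0.19, limma adjusted p 0.432), and 0.64 after scaling (SE 0.16, limma adjusted p 0.0510), just outside the threshold. Cat passed after rescaling to nuclear protein-coding genes (0.67, limma adjusted p 0.0244). It did not pass with any 1 library left out after scaling (limma adjusted p 0.0892 to 0.151). The ratio of Gpx1 to Cat within a library was 7.85, 7.46 and 6.93 in uninduced and 8.37, 8.07 and 7.48 in induced libraries, overlapping, with an exact permutation p of 0.2.

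Erythroid cells hold much catalase and glutathione peroxidase, and most tested erythroid markers were higher in the induced libraries. Of 17 markers 14 were tested, with 8 called higher and 1 lower, against 1.29% and 10.2% of all genes. After scaling 8 were called higher and none lower, against 2.84% and 3.21%. Groups did not overlap for 9 markers that were higher and 3 that were lower, against 4.83% and 28.2% of all genes. The summed level of the 17 was 434 to 512 TPM in uninduced and 677 to 786 TPM in induced libraries. The globin gene Hbb-bs, for example, was at 23.4, 9.48 and 12.7 TPM and at 183, 153 and 196 TPM. Car1 and Rhd were listed at 0 in all uninduced libraries. The Lin- Kit+ Sca1+ sort selects against erythroid cells. The part of erythroid RNA in the Gpx1 and Cat values was not tested. Prdx2, an abundant erythroid peroxiredoxin named after its values were seen, was at 77.7, 126 and 69.7 TPM in uninduced and at 56.01, 64.2 and 59.5 TPM in induced libraries, and was not called (log2 change -0.55, limma adjusted p 0.148; -0.15 after scaling, adjusted p 0.713).

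The superoxide dismutases act in different compartments. Sod1 (ENSMUSG00000022982; GRCm38, chromosome 16, 90220754 to 90226329, plus strand), the cytosolic copper and zinc enzyme, was at 261, 236 and 179 TPM when uninduced and at 218, 213 and 238 TPM when induced. These groups overlapped fully, with a log2 difference of 0.00098 (SE 0.17, limma adjusted p 0.998). After scaling the Sod1 change was 0.40 (SE 0.12, limma adjusted p 0.0956). Sod1 shares 650 bases at the gene level with Scaf4 on the opposite strand, which fell by 0.97 on the log2 scale (23.5 ± 2.95 and 11.7 ± 3.17 TPM, SD; adjusted p 0.0399 by limma). The Scaf4 call was lost after scaling (adjusted p 0.161) and on leaving out 5 of the 6 libraries in turn.

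Sod2 (ENSMUSG00000006818; GRCm38, chromosome 17, 13006846 to 13040063, plus strand), the manganese enzyme of mitochondria and a FoxO3 target, was at 15.2, 14.1 and 11.8 TPM in the uninduced libraries. In the induced libraries it was at 9.96, 8.58 and 6.67 TPM, below every uninduced value. The log2 change was -0.66 (SE 0.27, limma adjusted p 0.143), and -0.29 after scaling (SE 0.25, limma adjusted p 0.566), so Sod2 was not called on either scale. After scaling, leaving out induced replicate 3 took the Sod2 change to -0.10. Relative to Sod1 in the same library, Sod2 was at 0.0585, 0.0599 and 0.0662 in uninduced and at 0.0458, 0.0402 and 0.0281 in induced libraries. The induced ratios were all lower, 1.65-fold by geometric mean, with an exact permutation p of 0.1, the smallest possible.

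**Figure D2:**
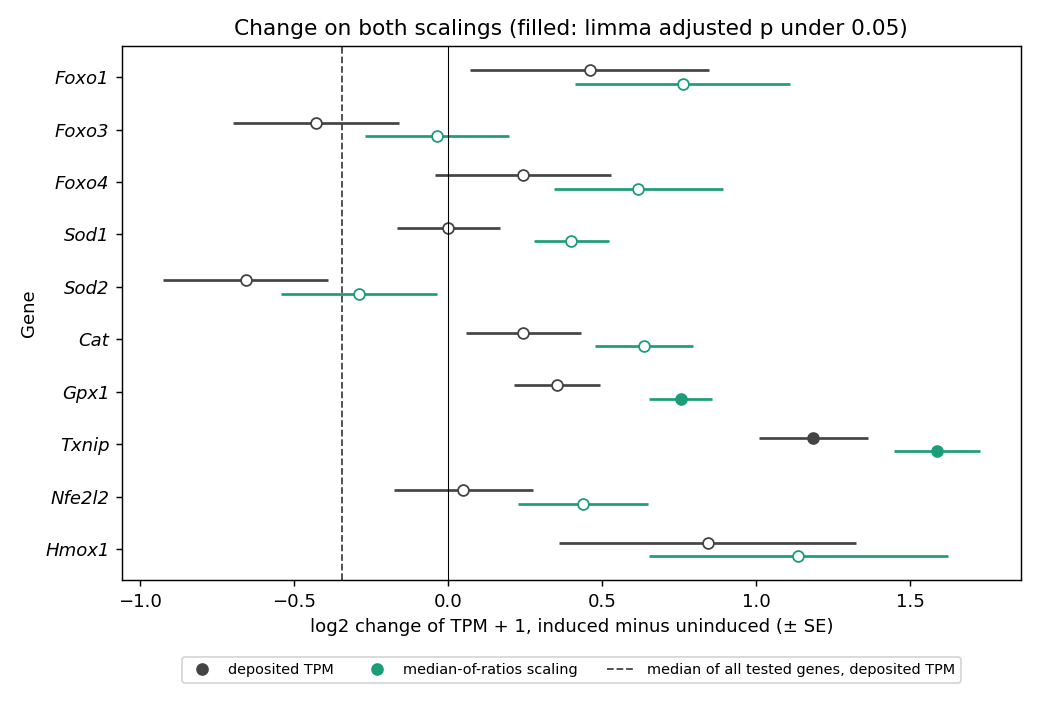
Log2 change of each gene, induced minus uninduced, with its standard error, on the deposited scale (grey) and after median-of-ratios scaling (green); filled points passed a limma adjusted p under 0.05. Txnip passed on both scales at 1.19 and 1.59 and Gpx1 after scaling at 0.75, while Sod2 lies below 0 on both, at -0.66 and -0.29.

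Of the FoxO factors themselves, limma called none on either scale, and 0 of 3 had an unadjusted p under 0.05 on the deposited scale. Foxo3 (ENSMUSG00000048756; GRCm38, chromosome 10, 42181841 to 42276755, minus strand), the member most needed for stem cell maintenance in mice, was the most abundant. It was at 38.2, 60.8 and 38.9 TPM when uninduced and at 26.2, 29.8 and 46.3 TPM when induced. Each group had 1 high library, uninduced replicate 2 and induced replicate 3, and the groups overlapped. The Foxo3 change was -0.43 (SE 0.27, limma adjusted p 0.337), and -0.038 after scaling (SE 0.23, limma adjusted p 0.949). Leaving out uninduced replicate 2 took the Foxo3 change to -0.21, and leaving out induced replicate 3 took it to -0.66, without a call.

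Foxo4 (ENSMUSG00000042903; GRCm38, chromosome X, 101254528 to 101260873, plus strand) was at 17.3, 10.4 and 14.1 TPM in uninduced and at 13.9, 14.2 and 22.0 TPM in induced libraries. Its groups overlapped, with a log2 difference of 0.24 (SE 0.29, limma adjusted p 0.618), and 0.62 after scaling (limma adjusted p 0.233). Foxo1 (ENSMUSG00000044167; GRCm38, chromosome 3, 52268336 to 52353221, plus strand), a factor with a central role in B-cell development, was at 3.34, 3.02 and 1.36 TPM in uninduced and at 3.75, 3.22 and 4.33 TPM in induced libraries. The ranges of Foxo1 overlapped narrowly, with a log2 difference of 0.46 (SE 0.39, limma adjusted p 0.475), and 0.76 after scaling (limma adjusted p 0.245). With a single library left out, the Foxo4 change ranged from 0.040 to 0.40 and the Foxo1 change from 0.18 to 0.63, and neither was called.

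The mix of FoxO transcripts was compared within libraries. Foxo3 made up 65.0%, 82.0% and 71.5% of the summed FoxO TPM in uninduced libraries and 59.8%, 63.05% and 63.7% in induced libraries. Foxo4 made up 29.4%, 14.0% and 26.01% and then 31.6%, 30.1% and 30.3%, and Foxo1 made up 5.68%, 4.07% and 2.49% and then 8.55%, 6.82% and 5.97%. In every induced library the share of Foxo3 was lower, and those of Foxo1 and Foxo4 higher, than in every uninduced library. The ratio of Foxo1 to Foxo3 was 2.12-fold higher in induced libraries and that of Foxo4 to Foxo3 1.63-fold higher by geometric mean, and the exact permutation p was 0.1 for each. Of the uninduced libraries, replicate 2 had the lowest Foxo4 share. Without it, the log2 difference in the Foxo4 to Foxo3 ratio fell from 0.70 to 0.28.

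In all, 6 ratios were tested, and over these the adjusted p was 0.15 for the 4 without overlap between groups, 0.24 for Gpx1 to Cat and 0.3 for Hmox1 to Hmox2. None could pass 0.05 in this design.

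**Figure D3:**
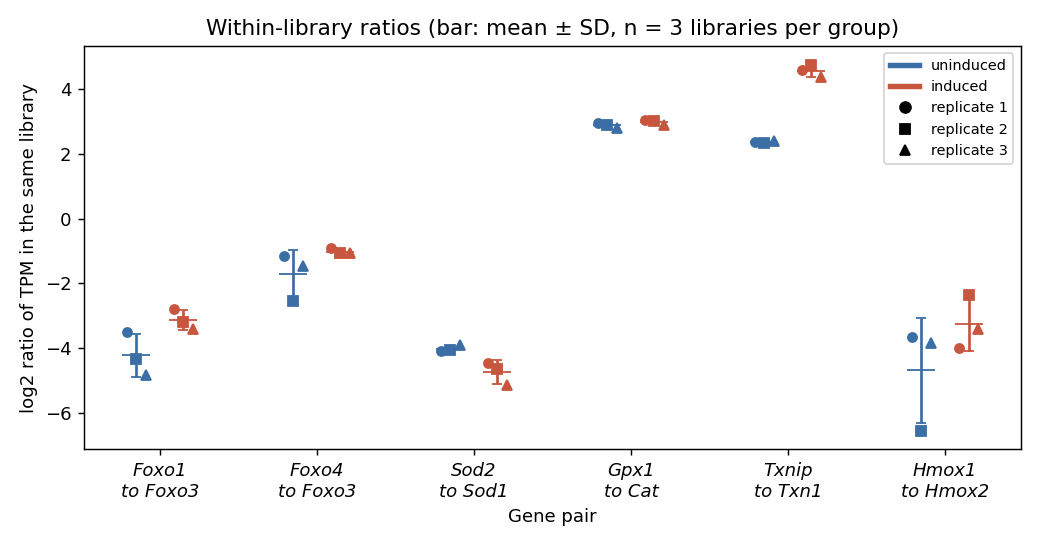
Log2 ratio of TPM of 2 genes in the same library, for 6 pairs, with points for the 3 uninduced (blue) and 3 induced (red) libraries and bars for the mean ± SD. The Txnip to Txn1 groups lie farthest apart, at a mean of 2.37 and 4.58, and the Sod2 to Sod1 ratio is lower in the induced libraries, at -4.02 and -4.75.

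Nfe2l2 (ENSMUSG00000015839; GRCm38, chromosome 2, 75675513 to 75704641, minus strand) was at 37.7, 24.1 and 28.1 TPM in uninduced and at 30.1, 27.9 and 33.7 TPM in induced libraries. The induced values lay inside the uninduced range, with a log2 difference of 0.050 (SE 0.22, limma adjusted p 0.909), and 0.44 after scaling (SE 0.21, limma adjusted p 0.272). Hmox1 (ENSMUSG00000005413; GRCm38, chromosome 8, 75093621 to 75100589, plus strand) encodes the inducible haem oxygenase, which breaks down haem and is strongly expressed in macrophages that clear red cells. It was at 5.55, 0.864 and 3.43 TPM in uninduced and at 4.84, 7.94 and 4.97 TPM in induced libraries. Hmox1 had the largest SE of the 10 genes, and its groups overlapped, with uninduced replicate 2 the lowest. The log2 change was 0.84 (SE 0.48, limma adjusted p 0.289), and 1.14 after scaling (SE 0.49, limma adjusted p 0.216). Leaving out uninduced replicate 2 took the Hmox1 change to 0.33, and leaving out uninduced replicate 1 took it to 1.24. Hmox2, the constitutive enzyme, was at 66.9 ± 16.2 TPM in uninduced and 57.1 ± 18.7 TPM in induced libraries (SD, n = 3 each). Its difference was -0.24 (adjusted p 0.590) but 0.15 after scaling (adjusted p 0.760), so its sign differed between the scales. The ratio of Hmox1 to Hmox2 ranged from 0.0106 to 0.0796 in uninduced and from 0.0623 to 0.193 in induced libraries and overlapped (exact permutation p of 0.3).

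Macrophage markers were low in both groups. Of 13 markers 4 were tested and limma called none, with 1 at an unadjusted p under 0.05, and their summed level was 7.05 to 19.0 TPM in uninduced and 15.3 to 19.4 TPM in induced libraries. Marco was listed at 0 in all 6 libraries. C1qb had 0 in each uninduced library and 0.734, 0.489 and 1.24 TPM in the induced ones. Adgre1, which encodes F4/80, was at 0, 1.54 and 0 TPM and at 0, 0.391 and 0 TPM. The Lin- Kit+ Sca1+ sort also selects against macrophages. The part of macrophage RNA in the Hmox1 values was not tested.

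Genes around the FoxO factors were examined from hand-written lists. Of 46 FoxO target genes 34 were tested, and 1 was called higher and 4 were called lower from deposited values. Sesn1, which encodes a sestrin that restrains mTORC1, was at 21.4, 30.2 and 27.5 TPM in uninduced and 52.8, 45.9 and 69.6 TPM in induced libraries. Sesn1 rose by 1.05 on the log2 scale (adjusted p 0.0181 by limma), and by 1.44 after scaling (adjusted p 0.00545). The deposited-scale call was lost without uninduced replicate 1 (adjusted p 0.0644) or induced replicate 1 (0.0587) or 3 (0.0682), and the scaled call was kept without any 1 library (0.0220 to 0.0340). Of the D-type cyclin genes, which FoxO factors repress, the list held Ccnd1 and Ccnd2. Ccnd2 fell by 1.08 on the log2 scale (86.03 ± 10.04 and 40.0 ± 1.19 TPM, SD; adjusted p 0.00537 by limma). It was the 1 of the 4 still called after scaling (-0.69, adjusted p 0.0248), and its scaled call ended without any 1 library (adjusted p 0.0593 to 0.0814). Ccnd1 fell by 1.55 (13.6 ± 3.37 and 4.13 ± 2.04 TPM; adjusted p 0.0227), and its scaled difference of -1.20 was not called (adjusted p 0.0745). The p130 gene Rbl2 and Klf2, a quiescence factor of lymphocytes named after its values were seen, also fell (limma adjusted p 0.0380 and 0.0404), without a call after scaling (0.379 and 0.176). These sit against 1.29% of all genes called higher and 10.2% lower.

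After scaling, 5 FoxO targets were called higher and 1 lower, against 2.84% and 3.21% of all genes. Beside Sesn1, the 4 others that were higher were named after their values were seen. Gabarapl1, an autophagy gene, was at 85.0 ± 13.8 and 124 ± 10.8 TPM (SD, n = 3 each) and rose by 0.95 after scaling (limma adjusted p 0.0194). Selenop, which encodes the selenium carrier selenoprotein P, was at 75.6 ± 1.47 and 103 ± 8.38 TPM and rose by 0.83 (limma adjusted p 0.0106). Gadd45a, a growth arrest gene, rose by 1.51 (limma adjusted p 0.0425; 1.14 and 0.0867 on the deposited scale). Tsc22d3, a glucocorticoid-induced gene, rose by 0.68 (limma adjusted p 0.0296; 0.29 and 0.290 on the deposited scale). With 1 library left out after scaling, Selenop kept its call for each of the 6 libraries, Gabarapl1 lost it for 4, and Gadd45a and Tsc22d3 for all 6. The median log2 change of the 34 genes was 0.12, and 0.46 after scaling, beside -0.35 and -0.0029 for all tested genes. When a single library was left out, 1 to 3 of the 34 were called on the deposited scale and 2 to 3 after scaling.

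Of 35 genes that act upstream of FoxO factors 32 were tested, and 4 were called, all lower, against 10.2% of all genes, a share near the background. Ywhab and Ywhae, which encode 14-3-3 proteins that hold phosphorylated FoxO in the cytoplasm, fell. Ywhab averaged 68.8 ± 9.86 TPM in uninduced and 32.6 ± 6.14 TPM in induced libraries (-1.06, adjusted p 0.0121 by limma). Ywhae averaged 238 ± 42.9 and 136 ± 25.7 TPM (-0.80, adjusted p 0.0273). Usp7, a deubiquitinase, and Xpo1, the nuclear export receptor, fell by 1.01 and 0.97 on the log2 scale (limma adjusted p 0.0160 and 0.0333). After scaling only Ywhab of the 4 was still called (-0.67, limma adjusted p 0.0445), and that call ended without any 1 library (adjusted p 0.0650 to 0.131). The scaled differences of Ywhae, Usp7 and Xpo1 were -0.41, -0.61 and -0.60 (adjusted p 0.141, 0.0728 and 0.157). Also after scaling, the PI3K subunit genes Pik3r1 and Pik3cd, named after their values were seen, were called higher at 0.77 and 0.66 (limma adjusted p 0.0221 and 0.0289), calls lost on leaving out 5 and 6 of the 6 libraries in turn. The median of the list, -0.32, lay close to that of all tested genes.

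Among 24 enzymes against superoxide and peroxide, 19 were tested, and limma called none on the deposited scale, with 8 of the 19 at an unadjusted p under 0.05 beside 3762 of all 13470 genes, and Gpx1 alone after scaling. Of 28 thioredoxin and glutathione genes 26 were tested, 5 were called lower and none higher, against 10.2% of all genes called lower. The median log2 change of the 26 was -0.56, and -0.18 after scaling. When a single library was left out, 2 to 5 of them were called, and 0 to 1 when this was done after scaling. Beside Txn1, Txndc5, an endoplasmic reticulum thioredoxin, fell by 1.34 on the log2 scale (27.6 ± 4.45 and 10.2 ± 0.481 TPM, SD; adjusted p 0.00709 by limma). Glrx3, a glutaredoxin of iron and sulphur handling, fell by 1.24 (41.5 ± 7.23 and 17.03 ± 3.08 TPM; adjusted p 0.00996). These 2 were still called after scaling (limma adjusted p 0.0371 and 0.0419), and both scaled calls ended when any 1 library was left out. The thioredoxin reductase Txnrd3 and the thioredoxin-like Nxn, the latter named after its values were seen, fell by 1.44 and 1.18 (limma adjusted p 0.0276 and 0.0344), without a call after scaling.

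Among the relatives of Txnip and the MondoA factors, 6 of 9 genes were tested and limma called none on the deposited scale, with 1 at an unadjusted p under 0.05. Arrdc4, Mlxip and Mlxipl were named after their values were seen. Arrdc4, an arrestin gene that MondoA activates together with Txnip, was at 11.5, 19.3 and 20.3 TPM in uninduced and 30.9, 31.5 and 24.6 TPM in induced libraries. Every induced value was above every uninduced value, and after scaling Arrdc4 rose by 1.15 (limma adjusted p 0.0453; 0.0910 on the deposited scale). Leaving out any 1 library ended the scaled Arrdc4 call (adjusted p 0.0608 to 0.156). Mlxip, which encodes MondoA, was at 10.4, 14.8 and 13.9 TPM and at 5.68, 9.60 and 9.41 TPM and was not called (limma adjusted p 0.205). Mlxipl, which encodes ChREBP, was listed at 0 in all 6 libraries.

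Of 31 Nrf2 target genes 27 were tested, with 1 called higher and 3 lower, against 1.29% and 10.2% of all genes, so the lower share is near the background. After scaling 2 were called higher and none lower, against 2.84% and 3.21% of all genes. Sqstm1, which encodes the autophagy receptor p62 and also restrains Keap1, rose by 0.69 on the log2 scale (52.4 ± 9.19 and 84.3 ± 3.91 TPM, SD; adjusted p 0.0414 by limma), and by 1.09 after scaling (adjusted p 0.00438). Without any 1 library the deposited-scale call of Sqstm1 ended (adjusted p 0.0624 to 0.114), and the scaled call was kept (0.0158 to 0.0294). The transketolase gene Tkt, the transporter gene Abcc1 and Txn1 fell, at limma adjusted p of 0.0193, 0.0233 and 0.0261, and none of these 3 was called lower after scaling. Beside Sqstm1, the gene called higher after scaling was Ftl1, which encodes ferritin light chain and was named after its values were seen (0.53, adjusted p 0.0298; 0.13 and 0.628 on the deposited scale). Leaving out any 1 library after scaling ended the Ftl1 call (adjusted p 0.0621 to 0.102). The median of the list was -0.32, and 0.0097 after scaling, close to all tested genes on both scales. Among 16 Nrf2 partners and inhibitors, 15 were tested, and Mafk, a small Maf partner, fell by 1.02 (limma adjusted p 0.0329), beside the rise of Sqstm1. The scaled difference of Mafk was -0.65 and was not called (adjusted p 0.157). Of 19 haem and iron genes 1 was called, against 11.5% of all genes in either direction and 1.29% higher. It was the ferrochelatase gene Fech, which rose by 1.07 (5.65 ± 1.39 and 12.9 ± 1.99 TPM; adjusted p 0.0414) and is also high in erythroid cells. Leaving out any 1 of the 6 libraries ended the Fech call on that scale. After scaling Fech (1.42, adjusted p 0.0173) and Ftl1 were the 2 called, both higher, against 2.84% of all genes. With 1 library left out after scaling, 0 to 1 of the 19 were called, and Fech lost its call for 5 of the 6 libraries (adjusted p up to 0.0789). Of 10 tested genes of NADPH oxidases and other oxidant sources limma called none on either scale, with 1 at an unadjusted p under 0.05 on the deposited scale.

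**Figure D4:**
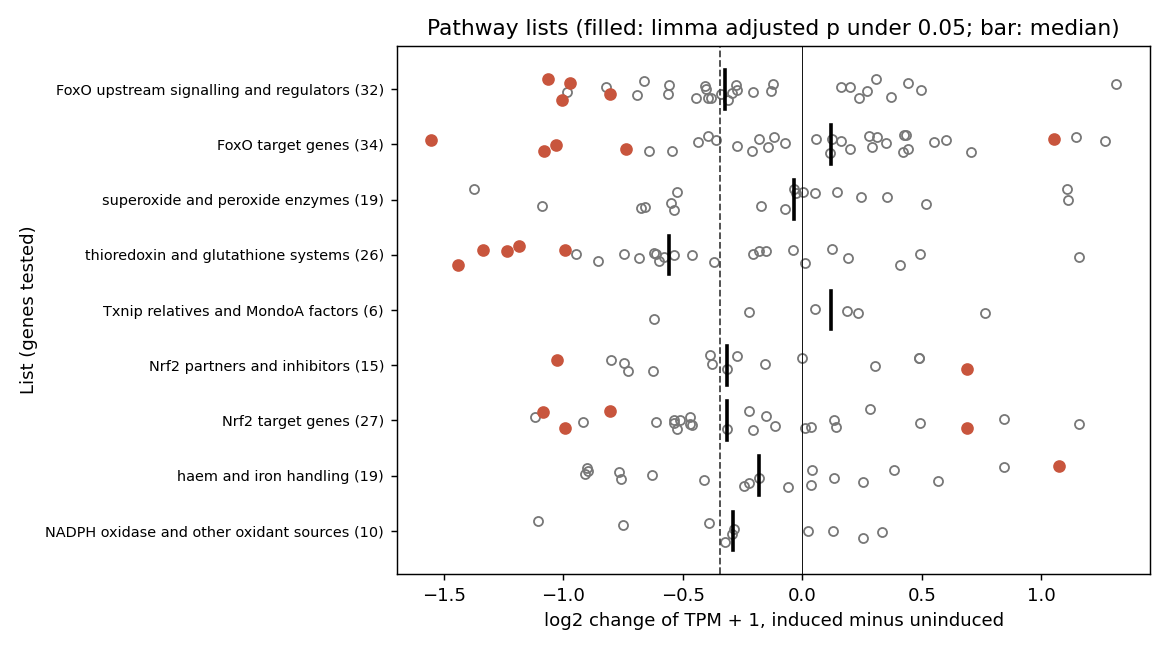
Log2 change of each tested gene of 9 lists, induced minus uninduced, with filled points for a limma adjusted p under 0.05, bars for list medians and a dashed line for the median of all tested genes at -0.35. The median of the FoxO target list lies at 0.12 and that of the thioredoxin and glutathione list at -0.56.

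All 16 proliferation markers were tested and 15 were called lower (14 after scaling). Their summed level was 634 to 764 TPM in uninduced and 137 to 189 TPM in induced libraries. With a library left out, 13 to 16 were called on the deposited scale and 8 to 11 after scaling. Beside the counts in this paragraph, 1.29% of all genes were called higher and 10.2% lower, and 2.84% and 3.21% after scaling. FoxO factors and their targets are tied to quiescence. Whether the groups differed in their share of cycling cells, and its part in the values above, was not tested. Immediate early genes, which respond to cell dissociation, summed to 2178 to 2691 TPM in uninduced and 1568 to 1723 TPM in induced libraries. Of 13 tested 5 were called lower and none higher, and 3 lower and 1 higher after scaling. A set of 15 reference genes summed to 6429 to 8085 and 4881 to 5574 TPM, with 5 called lower, and 1 lower and 1 higher after scaling. With a library left out, 1 to 5 reference genes were called, and 0 to 2 after scaling. The part of immediate early and reference genes in the values above was not tested. Markers of neutrophils and monocytes summed to 232 to 257 TPM in uninduced and 182 to 207 TPM in induced libraries. Of 10 tested 1 was called higher and 1 lower, and 2 higher and none lower after scaling. Stroma and endothelium markers summed to 24.8 to 37.0 and 39.9 to 48.6 TPM, and of 4 tested none was called by limma, with 1 at an unadjusted p under 0.05, and 1 was called higher after scaling. Megakaryocyte and platelet markers summed to 106 to 146 and 126 to 135 TPM, and of 7 tested 2 were called higher and 1 lower, and 2 higher and none lower after scaling. Lymphoid markers summed to 7.02 to 15.9 and 3.85 to 5.35 TPM, with 2 tested and none called by limma on either scale, 1 of them at an unadjusted p under 0.05.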

How the data were processed

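The labels' protocols give a stranded total RNA kit for very small inputs and paired-end sequencing for the 6 libraries. The authors deposited 1 table of gene TPM values, each column summing to 999976 to 999993 over 60496 rows. Per the submitters' processing notes, bcl2fastq, HISAT2, StringTie and DESeq2 were used with GRCm38, with no versions or roles. Annotation release and strand setting are not given in the sources used here. Rows were summed per gene ID. Gene positions come from GENCODE M21 (GRCm38) and promoter windows from RefSeq (GRCm38.p6).

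Genes averaging 1 TPM or more were fitted on the log2(TPM + 1) scale by limma (version 3.58.1, R 4.3.3) using a variance trend, and p-values were adjusted over all 13470 genes (Benjamini-Hochberg, two-sided). The main fit had no replicate block. Ratios were tested by exact permutation. The members and lists were chosen with earlier results of these data known, and lists are described by counts and medians. From each pathway list up to 4 called genes without overlap between groups were named, with the ratio partners Txn1 and Hmox2, the 3 profiles nearest to Txnip and up to 3 genes per marker list. Other genes are marked as named after their values were seen, except Scaf4, named for its overlap with Sod1. The labels do not say that libraries came from separate mice, and p-values then measure only the spread between libraries. On simulated data with 13470 genes, 200 were changed, all drawn from genes above about 5 TPM, with independent noise and no shift common to all genes. Of these, 89% of those changed by 2 log2 units and 25% of those changed by 1 were recovered. In all, 7 of 121 calls were false. The deposited data differ in number and level of changed genes and in a common shift, so these shares do not give recovery there.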

Additional observations from a re-analysis of the deposited data

How the results depend on the processing

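Results were recomputed under 17 alternatives and 6 more chosen after seeing the data, each of which leaves out a library after median-of-ratios scaling. Txnip passed under all 23, with limma adjusted p up to 0.0447. Of 228 recomputed changes of the 10 genes, 209 kept direction and call. The count of 1549 genes called became 752 without the filter, 767 without the variance trend, 814 both with median-of-ratios scaling and with quantile normalization, and 944 after rescaling to nuclear protein-coding genes. Leaving out a library gave 573 to 1198. After scaling, leaving out uninduced replicates 1, 2 and 3 gave 407, 377 and 317, and induced replicates 1, 2 and 3 gave 319, 297 and 284. Of the 10 genes, 1 was called, against 2 after scaling (also without any 1 library), 2 after quantile normalization and 4 after rescaling. Gpx1 passed after scaling (0.75), quantile normalization (0.64) and rescaling (0.79). In the same order of libraries left out after scaling it was 0.72, 0.79, 0.75, 0.79, 0.71 and 0.77. Sod1 (0.44) and Cat (0.67) passed after rescaling alone.

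Sod1 was -0.015 with array weights and -0.16 to 0.11 with a library left out, and Nfe2l2 was -0.091 to 0.22. Foxo3, after scaling, was 0.12 without uninduced replicate 2 and 0.13 without induced replicate 1. Hmox2 reversed after scaling (0.15), quantile normalization (0.14) and rescaling (0.19). It was 0.17, 0.25 and 0.019 after scaling without uninduced replicates 1, 2 and 3, and 0.31 and 0.23 without induced replicates 2 and 3. The cause was not tested. At a minimum mean of 5 TPM, Foxo1 and Hmox1 have no value.

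With the replicate block, 902 genes passed, Txnip among them (limma adjusted p 0.0143). Ywhae, Xpo1, Rbl2, Klf2, Txn1, Txnrd3, Mafk, Sqstm1, Fech and Scaf4 lost their deposited-scale call with it (limma adjusted p 0.0503 to 0.0956). Ywhab, Usp7, Ccnd1, Ccnd2, Sesn1, Txndc5, Glrx3, Tkt, Abcc1 and Gm15441 kept theirs. Median-of-ratios scaling with the replicate block gave 456 genes and 2 of the 10, with Gpx1 at 0.75 (adjusted p 0.0250) and Hmox2 at 0.15. Deviations of same-numbered libraries from their group means correlated at -0.0152 to 0.0215. With 3 libraries per group these values cannot settle whether the numbers mark pairs, which the labels do not state. All 48 recomputed ratios kept their direction.

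Over all 23 alternatives, calls numbered 1 to 10 for FoxO targets, 0 to 5 for upstream genes, 0 to 6 for thioredoxin and glutathione, 0 to 4 for Nrf2 targets, 0 to 3 for Nrf2 partners and for superoxide and peroxide enzymes, 0 to 2 for haem and iron, 0 to 1 for Txnip relatives and 0 for oxidant sources. On the deposited scale, Gm15441, Ccnd2, Txndc5 and Glrx3 kept their call without any 1 library. Klf2, Rbl2, Mafk, Nxn, Fech and Sqstm1 lost it without each of the 6, Usp7, Xpo1, Scaf4, Tkt and Abcc1 without 5, and Ywhab, Ywhae, Ccnd1, Txn1 and Txnrd3 without 4. With a library left out after scaling, Gm15441, Sesn1, Sqstm1 and Selenop kept their call for each of the 6, whereas Ccnd2, Txndc5, Glrx3, Ywhab, Arrdc4, Gadd45a, Tsc22d3, Pik3cd and Ftl1 kept it for 0. Pik3r1 and Fech lost it for 5 and Gabarapl1 for 4. Precision is limited by 3 libraries per group and by unknown depth.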
